A study of Mus musculus with 12 samples.

Results

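On day 16 of reprogramming, cells that carried SSEA-1 on their surface (D16S+) were separated from cells that did not (D16S-), and messenger RNA of each fraction was sequenced. Of 24098 genes, 12791 reached 1 FPKM or more in either fraction and were kept, and the comparison rests on 2 of the 12 libraries of the study. FPKM is the number of sequenced fragments of a gene normalised to its length and to the mapped fragments of the library, so levels can be set side by side between genes as well as between fractions. Both fractions started as mouse embryonic fibroblasts (MEFs) with a GFP tag on Oct4. The fibroblasts were infected, with polybrene, by pMXs retroviruses that carry Sox2, Klf4, Oct4 and c-Myc (together OSKM), and were kept, per the labels, in serum-replacement medium with LIF, ascorbic acid, bFGF, CHIR99021 and N-2 supplement, without feeder cells or passage, until day 16. By label, the fractions shared viruses, medium and time, and differed only in the sorting marker. The remaining libraries were uninfected MEFs (D0), unsorted cells of day 3 (D3), Thy-1 sorted fractions of days 6 and 9 (D6T-, D6T+, D9T-, D9T+), SSEA-1 sorted fractions of day 12 (D12S+, D12S-), induced pluripotent stem cells (iPSCs) and mouse embryonic stem cells of the line ES-D3 (mESCs). The sort was meant to part cells on the successful route to pluripotency from cells on the unsuccessful one. Strain, sex and the number of cultures or animals behind each library were not given in the sources used here.

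SSEA-1 is a carbohydrate, the Lewis x sugar, which mouse pluripotent cells display on glycoproteins and glycolipids. During reprogramming, fibroblasts lose Thy-1 and mesenchymal genes first, take on epithelial features, and turn on SSEA-1 and then the endogenous network of pluripotency factors later. Cells that stay SSEA-1- still carry the viruses, and as a rule do not become stem cells.

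Each fraction had 1 library, so no difference below has a replicate error or a p-value, and none can be said to exceed the spread between cultures. The error given with an FPKM is the interval that the authors' software, cuffdiff, modelled for it. These intervals were wide: they lay apart between the fractions for 2 genes with the higher value in D16S+, Lincenc1 and Tuba3a, and for 0 genes with the higher value in D16S-. A gene was called higher or lower when its FPKM, after adding 1, differed by at least 2-fold, which is a difference of at least 1 in log2(FPKM + 1). Differences are given on that scale throughout as D16S+ minus D16S-, which understates the change of genes at low levels. Absolute depth is unknown. Among 2581 genes with low values in both fractions, the most frequent ratio of D16S+ to D16S- was 0.662. Read as the ratio for 1 fragment in each, it put D16S+ at 1.51 times the depth of D16S-. Only the genes at that ratio set this value. The FPKM of all genes summed to 484968 in D16S+ and 525173 in D16S-, and 11888 and 11858 genes reached an FPKM of 1, respectively.

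The fractions differed widely. Of the 12791 genes, 1669 were at least 2-fold higher in D16S+ (13.0%) and 2162 were at least 2-fold lower (16.9%), while 8960 lay within 2-fold. The median difference over all of these genes was -0.02. The higher genes were fewer but reached further. At 16-fold, 35 genes were higher and 7 lower, and at 32-fold, 6 genes were higher and 0 lower. At 4-fold the order was the other way, with 385 genes higher and 555 lower. A further description is whether a gene passed an FPKM of 1 at all: 933 genes did so in D16S+ alone of the pair, and 903 in D16S- alone. In such bulk fractions, fewer cells that express a gene and less RNA of it per cell cannot be told apart. Scaling both libraries to the same total FPKM moved the differences up, by 0.115 for well expressed genes, turned the median to 0.09, and gave calls in which 1974 genes were higher and 1967 lower.

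**Figure D1:**
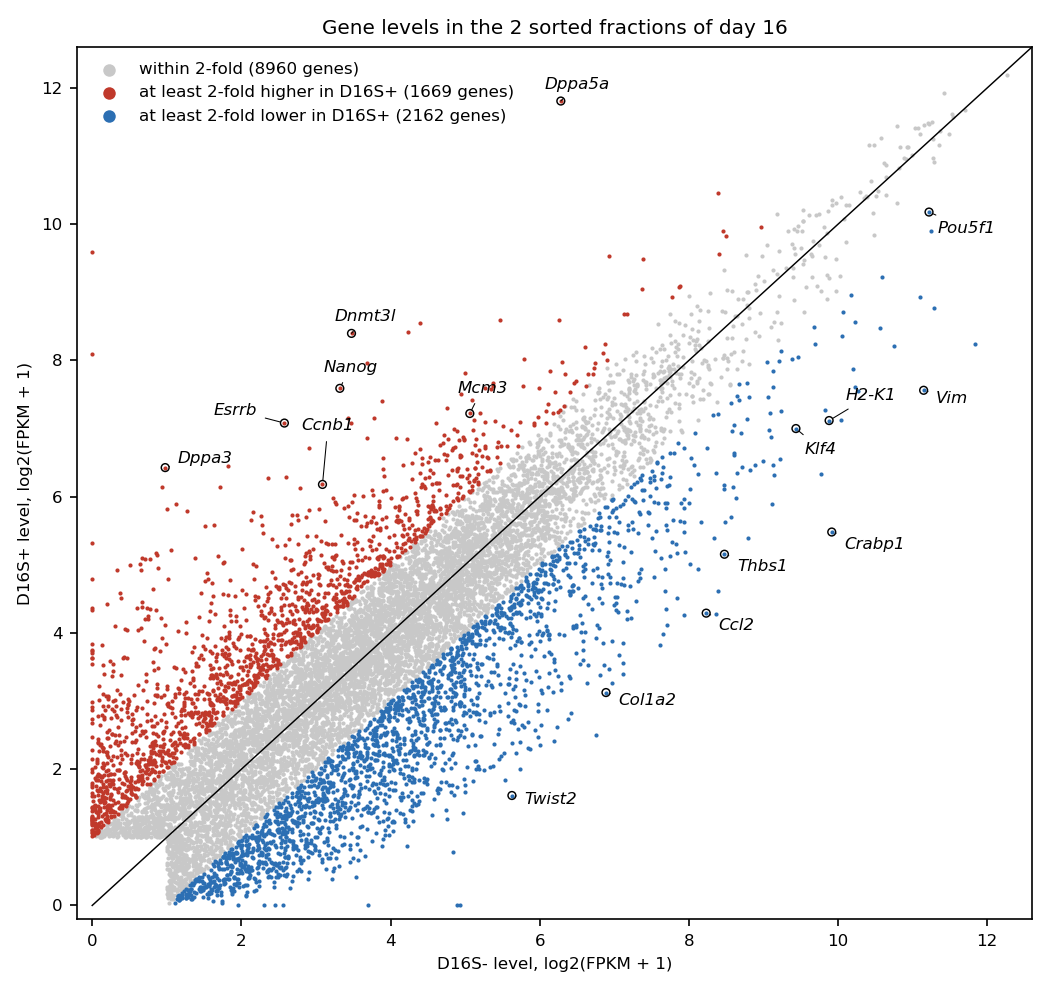
Level of each of the 12791 genes in D16S- (x axis) and D16S+ (y axis), both as log2(FPKM + 1), with 1 point per gene and the line of equal levels. Red points (1669) are at least 2-fold higher in D16S+ and blue points (2162) at least 2-fold lower; named genes are ringed, and Dppa5a and Vim lie far from the line at high levels.

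Gm13157 was the lowest gene kept, at an FPKM of 1.00 in D16S+ and 0.0711 in D16S-, and Wfikkn1 was the highest gene left out, at 0.318 and just under 1. Rps27a was the smallest difference called higher, at 998 against 499 FPKM, and Urb1, at 13.4 against 6.23, just missed the call. Gprc5a was the smallest called lower, at 28.2 against 57.5 FPKM, and Stat2, at 23.9 against 48.8, just missed it.

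The sorting marker cannot be checked on a gene of its own, because SSEA-1 is made by enzymes. Of the 19 genes of fucose and Lewis x metabolism in the list, 16 were kept, 0 were called higher in D16S+ and 5 were called lower, with a median difference of -0.20. Fut9, the fucosyltransferase known to make Lewis x in early mouse embryos, stayed under the filter, at 0.36 FPKM in D16S+ and 0.0232 in D16S-. Fut4, the other main candidate enzyme, was also under it, at 0.285 and 0.887. Fut10, another member of the fucosyltransferase family, was called lower at 1.33 against 5.66. The RNA of these enzymes thus did not follow the marker as a group, whereas that of Fut9 was the higher in the positive fraction at a level near the floor. The fibroblast marker Thy1, on which earlier days were sorted, had 3.73 FPKM in D16S+ and 44.8 in D16S-.

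The genes furthest apart were chosen by a rule, the 15 largest differences in each direction among genes that reached 10 FPKM in one fraction, small RNAs and predicted genes left out. The higher set was dominated by genes of pluripotent cells, oocytes and testis. Dppa5a, an RNA-binding protein of pluripotent cells on chromosome 9 (mm9, 78214859 to 78215984), had 3582 FPKM in D16S+ and 76.9 in D16S-, a difference of 5.52 (intervals 0 to 8458 and 0 to 160). In the mESCs it had 2698 and in the MEFs 1.34, so the positive fraction stood above the stem cells. Dppa3, which protects methylated DNA in the early embryo, had 85.0 FPKM against 0.97, a difference of 5.45. Its D16S+ value was also the highest of the 12 libraries, above 17.9 in iPSCs and 5.53 in mESCs. Dnmt3l, the cofactor of the de novo DNA methyltransferases, had 336 against 10.1 FPKM (difference 4.92).

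Among the other higher genes of that set, Dppa4, Zfp42, Esrrb, Ooep, Khdc3, Rbmxl2 and Tcl1 are expressed in embryonic stem cells, and the first 3 are widely used markers of them. Esrrb, an orphan nuclear receptor of the naive network, had 134 FPKM in D16S+ and 4.97 in D16S-, close to 165 in iPSCs and 195 in mESCs. Zfp42 (Rex1) had 54.2 against 1.42, yet 173 in mESCs. Khdc3 and Ooep, which encode proteins of a complex of the oocyte cortex, differed by 4.49 and 4.43. Cyct and Tuba3a, the testis forms of cytochrome c and of alpha tubulin, differed by 4.81 and 5.20, with D16S+ at 55.4 and 69.4 FPKM. Tuba3a has a near-identical copy, Tuba3b, so its share of the reads is uncertain. Aire, known as the regulator of self-antigen expression in the thymus, had 58.7 against 1.18 FPKM (difference 4.78) and 23 in mESCs. Aire lies next to Dnmt3l on chromosome 10, from 77492767 to 77506355 on the minus strand, and its annotated start overlaps that of Dnmt3l, at 77504692 on the plus strand, so reads could be divided between them: counting by strand is not given in the sources used here. Otx2, a homeobox factor of primed pluripotent cells, had 31.3 against 0.564 FPKM, whereas iPSCs and mESCs had 1.81 and 2.11.

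The lower set joined genes of MEFs with genes that were lower in MEFs than in D16S-. Crabp1, a carrier of retinoic acid on chromosome 9 (54612555 to 54620917), had 43.7 FPKM in D16S+ and 965 in D16S- (difference -4.43), and 6195 in the MEFs. Its interval in D16S- ran from 15.3 to 1914. Twist2, a mesenchymal transcription factor, had 2.06 against 48.4 FPKM and 435 in MEFs. Col1a2, a chain of type I collagen, had 7.72 against 117 FPKM and 1738 in MEFs. For these genes D16S- lay between the fibroblasts and the stem cells, and D16S+ was the nearer to iPSCs, which had 12.7, 1.27 and 6.65 FPKM. Crym, a thyroid hormone binding protein, went another way. It had 1.46 FPKM in MEFs, 336 in D16S- and 23.5 in D16S+ (difference -3.78), and D16S- was the highest of the 12 libraries. Cdh13, a cadherin without a cytoplasmic domain, had 194 FPKM in D16S- against 13.2, and 10.8 in MEFs. Slpi, a secreted protease inhibitor, had 330 against 18.4 FPKM, and 26 in MEFs.

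Tgtp1, an interferon-induced GTPase, had the largest negative difference of the rule, -4.89, at 0.00348 against 28.7 FPKM, but a near-identical neighbour, Tgtp2, makes its share of reads uncertain. The same holds for H2-L and LOC547349, which had 4.64 against 107 and 0.73 against 27.5 FPKM. The chemokine Ccl2 had 18.6 against 300 FPKM (difference -3.94). The rest of the lower set were Acsbg1, Axl, Aqp1, Oaf and Fabp4, with differences from -3.78 to -3.70.

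**Figure D2:**
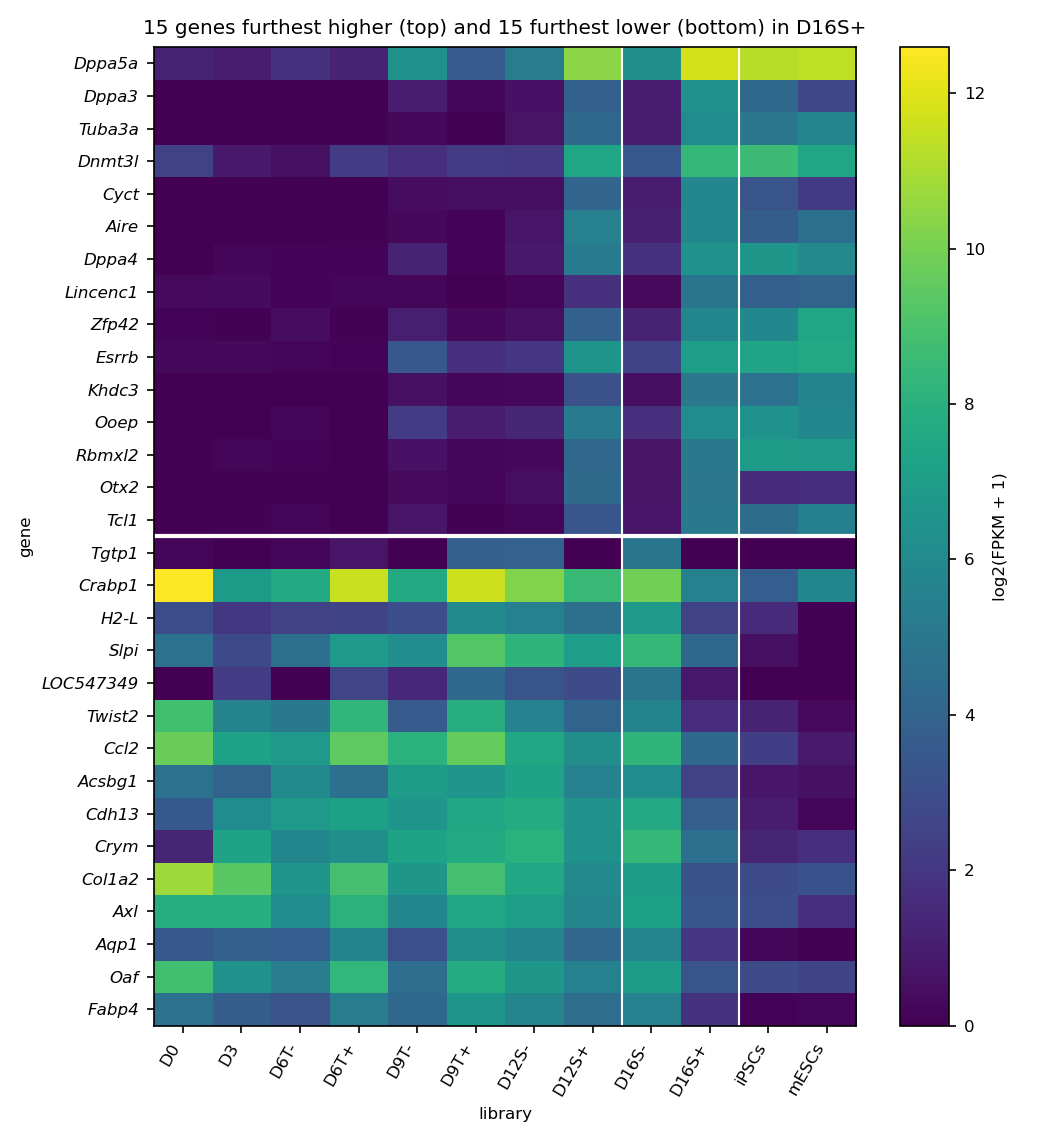
Level of the 15 genes furthest higher (above the white line) and the 15 furthest lower (below it) in D16S+, as log2(FPKM + 1) in each of the 12 libraries, 1 column per library. The upper genes are brighter in D16S+ than in D16S-, and several of them, such as Otx2, Dppa3 and Cyct, are brighter there than in iPSCs and mESCs; the lower genes are strong in D16S- and in many earlier libraries.

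Genes of cell division stood higher in D16S+. All 23 listed genes of mitosis were called higher in D16S+, with a median difference of 2.06 and a range from 1.7 to 3.09, against 13.0% of all genes. Ccnb1, the cyclin that drives entry into mitosis, had 71.5 FPKM in D16S+ and 7.5 in D16S- (interval 3.47 to 139 against 0 to 17.1). Kif11, a motor that builds the spindle, had 18.2 against 2.59, Kif2c, which takes microtubules apart, 56.3 against 9.41, and Mki67, the proliferation marker Ki-67, 29.7 against 5.45. No mitotic member was within 2-fold. Of 25 genes of DNA replication, 20 were called higher and 0 lower, with a median of 1.84. Mcm3, a subunit of the replicative helicase, had 148 against 32.4 FPKM, and Gmnn, the inhibitor of repeated origin licensing, 67.6 against 12.5. The 5 members within 2-fold were Gins2, Rrm1, Pcna, Tk1 and Rfc3, from 0.66 to 0.99, so they too were on the higher side.

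Against the other libraries, D16S- was low for these genes and D16S+ high. The median level of the mitotic genes, as log2(FPKM + 1), was 6.11 in D16S+, 3.85 in D16S-, 4.62 in the uninfected MEFs, 5.61 in iPSCs and 5.62 in mESCs. For replication the medians were 5.56, 4.18, 4.89, 6.07 and 6.42. The negative fraction thus lay under the fibroblasts it came from in both lists, and the positive fraction passed the stem cells for mitosis but not for replication. The low level was not particular to D16S-. In both lists D3, D6T+, D9T-, D9T+ and D12S- also lay under the fibroblasts, while D6T- and D12S+ lay above them. D9T+ was lower than D16S-, at 3.59 for mitosis and 4.12 for replication.

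Regulators of the cycle did not lean to D16S+. Of 18 CDK inhibitors, p53 targets and D cyclins, 1 was called higher and 7 lower, and the median difference of -0.05 turned to 0.06 when both libraries were scaled to the same total. Cdkn1a (p21) had 152 FPKM in D16S+ and 601 in D16S-, Cdkn2a (Ink4a and Arf) 80.2 and 327, and Cdkn2b 8.44 and 35.1. The D cyclins Ccnd1 and Ccnd2, which act early in the cycle, were also lower, at 35.3 against 246 and 17.4 against 143. Trp53 itself was the member called higher, with 221 against 99.3 FPKM. The p53 targets Mdm2, Bax, Bbc3 and Ccng1 did not follow Cdkn1a and differed by -0.10, 0.05, 0.29 and 0.15. Further p53 targets of the list are not given here.

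Promoters of the mitotic and replication genes were read from mm9 because the members of each list lay on the same side. The window ran from 250 bases before to 50 after the gene start of the GENCODE M1 annotation, and such a window was found for 11789 of the 12791 genes (92.2%), for all 23 mitotic and for all 25 replication genes. Matches were sought on both strands, and a match is a string of letters, not a bound site. The CHR element (TTTGAA or TTCGAA), which is known from mitotic promoters, was present in 15 of 23 mitotic promoters (65.2%) against 13.6% of all windows. All 15 also held a CCAAT box (CCAAT), and CHR and CCAAT occurred together in 5.95% of all windows. The CCAAT box alone was in 20 of 23 (87.0%) against 38.6%. The E2F motif (TTTCCCGC, TTTCGCGC, TTTGCCGC or TTTGGCGC) was in 10 of 25 replication promoters (40.0%) against 3.97%. CHR and CCAAT matches shared bases in 13 windows, and E2F and CCAAT in 2. The presence of the letters did not mark the larger differences: the 15 mitotic genes with a CHR element had a median of 2.08 and the 8 without it 2.04. Over all 1607 genes with a CHR element in the window, 18.6% were called higher and 15.2% lower, and over the 468 with an E2F motif 20.9% and 11.1%, against 12.9% and 17.2% of all genes with a window. Stretches of 70 bases before the gene start are shown for the 2 members per list with the largest difference among those that hold the motif, in the direction of transcription and with the motif in capitals, for Kif11 at chr19:37450823-37450892 (plus strand), Top2a at chr11:98885504-98885573 (minus strand), Mcm3 at chr1:20810360-20810429 (minus strand) and Gmnn at chr13:24853973-24854042 (minus strand).
Kif11, CHR element: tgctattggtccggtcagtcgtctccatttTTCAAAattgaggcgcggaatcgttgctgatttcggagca
Top2a, CHR element: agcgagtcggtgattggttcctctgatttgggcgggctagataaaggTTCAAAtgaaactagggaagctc
Mcm3, E2F motif: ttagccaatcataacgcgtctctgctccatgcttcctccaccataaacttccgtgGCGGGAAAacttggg
Gmnn, E2F motif: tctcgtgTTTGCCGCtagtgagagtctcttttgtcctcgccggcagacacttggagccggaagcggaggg
In Kif11 and Top2a the element reads in reverse, and it ends 34 and 17 bases before the start. The E2F motif of Mcm3 also reads in reverse and ends 7 bases before the start, and that of Gmnn 235.

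The pluripotency network was higher in D16S+ once the 4 reprogramming factors were set apart. Reads of the viral OSKM sequences cannot be told from endogenous ones at the gene level, and each of the 4 was lower in D16S+: Pou5f1 (Oct4) at 1157 against 2383 FPKM, Sox2 at 146 against 318, Klf4 at 127 against 691 and Myc at 92.6 against 599. Of the other 19 regulators, 18 were called higher and 0 lower, with a median of 2.84. Nanog, a core factor of pluripotency, had 192 FPKM in D16S+ and 8.99 in D16S-, beside 143 in iPSCs. Prdm14, a repressor of differentiation, had 9.35 against 0.206, Utf1 372 against 19.9, and Nr0b1 33.4 against 1.59. Sall1 was the one regulator within 2-fold, at 29.2 against 23.8 FPKM.

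Of 29 further genes associated with pluripotency, 28 were kept, 26 of these were called higher and 1 lower, with a median of 2.27. Tdgf1 (Cripto), a coreceptor for Nodal, had 339 against 17.8 FPKM, Lin28a, which blocks let-7 maturation, 49.7 against 3.38, and Alpl, the alkaline phosphatase used to stain colonies, 168 against 13.8. Icam1 was the member called lower, at 29.5 against 64.5. The Nodal pathway had the same side: of 10 kept genes, 7 were called higher and 1 lower (median 1.93). Its ligand Nodal had 47.7 against 5.36 FPKM, and the inhibitors Lefty1 and Lefty2, which are also its targets, 115 against 11.9 and 51.6 against 3.79. Both Lefty genes were highest of the 12 libraries in D16S+, with iPSCs at 0.867 and 1.58. Furin, a protease that processes such ligands, was the member called lower, at 27.2 against 95.3.

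Enzymes of DNA methylation and germline genes also stood higher in D16S+. Of 9 enzymes and cofactors, 5 were called higher and 1 lower (median 1.53). Dnmt3b, a de novo methyltransferase, had 52.2 against 5.69 FPKM, and Tet1, which oxidises methylcytosine, 23.9 against 0.763. Tet3 went the other way, at 1.62 against 5.06, and Dnmt3a and the maintenance enzyme Dnmt1 were within 2-fold at 16.8 against 11.8 and 85.4 against 47.4. Of 18 germline genes that DNA methylation is known to keep silent in somatic cells, 11 passed the filter, 10 of them called higher and 0 lower. Because the filter is passed through the higher fraction, this count had to lean one way where D16S- was near 0. Their levels were low: Mael, of the piRNA pathway, had 5.97 FPKM in D16S+ and 0.0988 in D16S-, Dazl, an RNA-binding protein of germ cells, 2.78 against 0.0664, and Sycp3, of the synaptonemal complex, 3.43 and was listed at 0. Rpl10l, a testis ribosomal protein gene, was higher at 20.9 against 0.582. Of the 7 members under the filter, 6 had the higher value in D16S+.

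The germline windows held an E-box (CACGTG) in 6 of 11 (54.5%) against 10.0% of all windows. The 6 genes were Ddx4, Mael, Mov10l1, Rnf17, Sycp3 and Taf7l. Those with an E-box had a median difference of 1.85, and the other 5 of 1.83. The stretch from Sycp3 (mm9 chr10:87922244-87922313, plus strand), which holds 2 of them, and the one from Mael (chr1:168169056-168169125, minus strand) are shown with the E-box in capitals.
Sycp3, E-box: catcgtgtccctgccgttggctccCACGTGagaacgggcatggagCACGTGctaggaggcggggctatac
Mael, E-box: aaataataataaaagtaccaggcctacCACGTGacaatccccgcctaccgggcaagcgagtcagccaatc

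A small group known from the 2-cell embryo and from rare cells of stem cell cultures was present as well. Of 9 listed genes, 6 were kept and all 6 were called higher in D16S+ (median 1.52), but members near 0 in D16S- could pass the filter only through D16S+, so this count too had to lean one way. Tcstv1 had 19.4 against 0.711 FPKM and Tcstv3 11.3 against 0.381, while Zscan4c had 1.78 against 0.0216. These genes have close copies, among which the reads may be divided or lost.

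Among chromatin regulators, of 24 Polycomb genes, 11 were called higher and 4 lower (median 0.95). Ezh2, the methyltransferase of Polycomb complex PRC2, had 21.9 against 5.06 FPKM, its partner Suz12 12.0 against 3.57, and the PRC2 accessory factor Mtf2 14.7 against 1.76. Among the CBX readers, Cbx7, known from embryonic stem cells, was higher at 77.9 against 14.1, whereas Cbx8 was lower at 2.17 against 6.89. In the BAF remodelling complex 3 of 16 genes were called higher and 3 lower, shares near the 13.0% and 16.9% of all genes. Smarcc1 and Smarcd1 had 48.0 against 22.3 and 53.4 against 25.9 FPKM, and their paralogs Smarcc2 and Smarcd3 had 10.4 against 27.4 and 1.21 against 5.16. The ATPase Smarca4 (Brg1) was within 2-fold at 66.3 against 75.3, and its paralog Smarca2 (Brm) was lower at 4.51 against 16.1. For histone H3.3, the variant that the study is about, the genes H3f3a and H3f3b were within 2-fold at 85 against 95 and 205 against 169 FPKM. Of its 10 genes and chaperones, 3 were called higher and 0 lower, namely Atrx (9.17 against 3.67), Asf1a (4.02 against 0.926) and Asf1b (28.2 against 9.84). The shares of all genes were 13.0% and 16.9%, and a list of 10 is too short to be set apart from them. Hira and Daxx differed by 0.58 and 0.66.

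**Figure D3:**
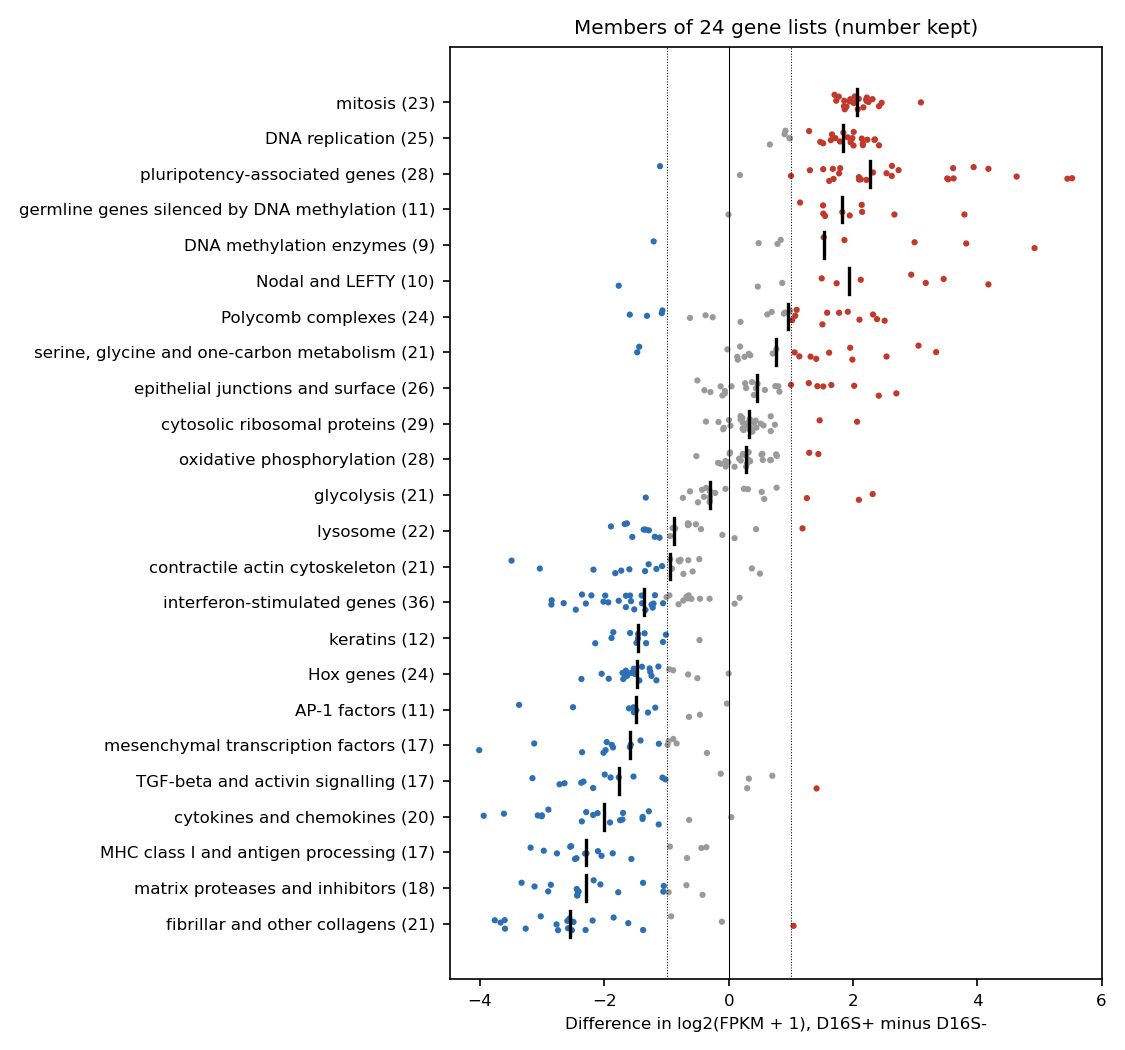
Difference in log2(FPKM + 1), D16S+ minus D16S-, of each kept member of 24 gene lists; 1 point per gene, black bars for medians and dotted lines at 2-fold, with points past them red (higher) or blue (lower). All 23 mitotic genes lie to the right of the 2-fold line, and 18 of 21 collagens lie to the left.

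Genes of the extracellular matrix stood lower in D16S+. Of 21 kept collagens, 18 were called lower and 1 higher, with a median of -2.56, against 16.9% of all genes called lower. Col1a1, the main collagen of connective tissue, had 16.3 FPKM in D16S+ and 208 in D16S-, Col3a1 2.97 and 37.2, and Col6a1 18.2 and 243. The basement membrane collagens Col4a1 and Col4a2 followed at 48.7 against 244 and 38.6 against 227. Col2a1 and Col18a1 did not: the former, the cartilage collagen, was called higher at 4.03 against 1.44, and the latter was nearly equal at 117 against 127. The enzymes that modify, fold and cross-link collagen gave 15 of 20 lower and 0 higher (median -1.69), among them the lysyl oxidase Loxl3 at 3.12 against 40.5 FPKM. Of 28 other matrix genes, 18 were lower and 3 higher (median -1.92). Thbs1 had 34.6 against 355, and the exceptions Fbln1, Nid2 and Spon1 had 25.4 against 8.87, 125 against 48.1 and 1.69 against 0.183. Fn1, fibronectin, was within 2-fold at 196 against 264. Matrix proteases and their inhibitors had 15 of 18 lower and 0 higher (median -2.29), with both Mmp2 (10.6 against 116) and the inhibitor Timp2 (7.95 against 77.0) among them.

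Other traits of mesenchymal cells shared this direction. Of 17 mesenchymal transcription factors, 12 were lower and 0 higher (median -1.59). Twist1 had 1.93 against 14 FPKM, Snai1 4.52 against 21.3 and Prrx1 2.61 against 30.6. Of 16 fibroblast markers, 13 were lower and 0 higher (median -2.11), with the intermediate filament vimentin, Vim, at 188 against 2267. Of 17 genes of TGF-beta and activin signalling, 12 were lower and 1 higher (median -1.77). The ligand Inhba had 2.33 against 28.7 and the receptor Tgfbr2 9.23 against 62.8, while Skil, a repressor of the pathway, was the higher one at 16.5 against 5.57. Of 21 genes of contractile actin, 10 were lower and 0 higher (median -0.94), led by the smooth muscle actins Actg2 (1.40 against 26.1) and Acta2 (7.81 against 71.4). Hox genes, which record position along the body axis, had 19 of 24 lower and 0 higher (median -1.47), with Hoxc6 at 1.72 against 13.1. The median level of the kept Hox genes, as log2(FPKM + 1), was 0.72 in D16S+ and 2.18 in D16S-. Any member of these lists under 1 FPKM in D16S+ passed the filter only through D16S-, so such counts in part had to lean lower.

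Epithelial genes were divided between the fractions. Of 26 genes of epithelial junctions and surface, 8 were called higher in D16S+ and 0 lower (median 0.45). Cdh1, E-cadherin, had 130 FPKM in D16S+ and 44.6 in D16S-. The median level of the list, as log2(FPKM + 1), was 5.24 in D16S+, 4.00 in D16S- and 0.18 in MEFs. Tjp3, of the tight junction, had 38.0 against 5.02, and the splicing factor Esrp1 32.7 against 5.31. Keratins, in contrast, had 11 of 12 lower and 0 higher (median -1.46). Krt8 and Krt18, the filament pair of simple epithelia, had 149 against 543 and 259 against 664 FPKM, and Krt14, of basal skin cells, 8.24 against 39.9. Genes of stratified epithelium gave 16 of 21 lower and 0 higher (median -1.58). Aldh3a1, an aldehyde dehydrogenase abundant in the cornea, had 79.6 against 869, Lgals7 26.9 against 161, and Itgb4, the hemidesmosome integrin, 27.4 against 185. Trp63, the master factor of such epithelia, was under the filter in both, at 0.0193 and 0.117. Of 10 desmosome genes 2 were lower and 0 higher, where 16.9% of all genes were lower and 13.0% higher. The share lower was thus near that of all genes, although 8 of the 10 had a negative difference (median -0.70). The median level of the keratins, as log2(FPKM + 1), was highest of the 12 libraries in D16S-: the median keratin level was 5.18 in D16S-, 3.38 in D16S+, 4.27 in D12S+ and 0.37 in MEFs.

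Interferon-stimulated and antigen presentation genes were lower in D16S+ as well. Of 36 interferon-stimulated genes, 24 were called lower and 0 higher (median -1.37). Igtp and Gbp3, GTPases that defend cells from intracellular parasites, had 51.3 against 376 and 19 against 143 FPKM, Isg15, a ubiquitin-like modifier, 43.5 against 244, and Irf7, a transcription factor of the response, 16.3 against 108. The RNA sensor gene Ddx58 and Ifitm1 were within 2-fold at 14.1 against 13.2 and 240 against 212. Of 17 genes of MHC class I and antigen processing, 13 were lower and 0 higher (median -2.29). B2m, the light chain, had 153 against 903, H2-K1 138 against 941, and the immunoproteasome subunit Psmb8 80.6 against 398. Nlrc5, the transactivator of class I genes, had 2.51 against 18.5. Class I heavy chains resemble each other, so single H2 values are uncertain, but B2m, Tap1 and Psmb8, which are no heavy chains, lay in the same direction. D16S- had the highest median of the 12 libraries in both lists, 5.34 for interferon-stimulated genes and 7.90 for antigen presentation, as log2(FPKM + 1). Gbp2 had 353 FPKM in D16S- and 68 in D16S+, the next of the 12 libraries.

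The interferon-stimulated response element, searched as GAAA, NN and GAAA in a row on both strands, was found in 18 of 36 interferon-stimulated promoters (50.0%) and 3 of 16 antigen presentation promoters with a window (18.8%), against 3.27% of all windows. It shared bases with the CHR element in 11 windows and with the E2F motif in 2. The 18 genes with it had a median difference of -1.37 and the 18 without it -1.31. Of the 385 genes with the element in the window, 24.7% were called lower and 10.1% higher, against 17.2% and 12.9% of all genes with a window. The stretches from Igtp (mm9 chr11:58012988-58013057), Gbp3 (chr3:142222939-142223008) and B2m (chr2:121973254-121973323), all on the plus strand, show it in capitals.
Igtp, response element: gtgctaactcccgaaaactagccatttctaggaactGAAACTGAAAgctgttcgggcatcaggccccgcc
Gbp3, response element: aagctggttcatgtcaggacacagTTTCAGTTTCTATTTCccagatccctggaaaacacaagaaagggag
B2m, response element: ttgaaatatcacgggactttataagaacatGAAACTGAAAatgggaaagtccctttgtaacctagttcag
In Gbp3 the capitals cover a pair of overlapping matches in reverse.

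Secreted signals and their early response genes took the same side. Of 20 cytokines and chemokines, 18 were lower in D16S+ and 0 higher (median -2.01). Members under 1 FPKM in D16S+ passed the filter only through D16S-, so this count too in part had to lean one way. Cxcl1, which attracts neutrophils, had 1.55 against 30.3 FPKM, Il6 0.42 against 5.96, and the macrophage growth factor Csf1 7.72 against 64.1. Lif, the cytokine that also feeds mouse stem cells, had 5.42 against 23.1. Of 11 AP-1 factors, 8 were lower and 0 higher (median -1.49). Fosl1 had 4.94 against 60.4, Fosl2 9.89 against 60.8 and Jun 26.1 against 74.8, while Jund was nearly equal at 56.6 against 57.8. The AP-1 site (TGANTCA) was in the promoter window of 613 genes, of which 27.7% were called lower and 11.3% higher. Of all genes with a window, 17.2% were lower and 12.9% higher. Of 19 feedback genes of MAP kinase signalling, 8 were lower and 1 higher, Etv5 (135 against 59.7).

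Markers of blood cells were read beside these lists. Ptprc (CD45), which all leukocytes express, was listed at 0 in D16S+ and had 0.0269 FPKM in D16S-, and Emr1 (F4/80) had 0 and 0.0148. Of 12 leukocyte markers, 5 were kept, of which 3 were called lower in D16S+: Laptm5 (19 against 57.3), Csf1r (6.63 against 19.9) and Cd14 (1.67 against 9.03). The list summed to 92.1 FPKM in D16S+ and 204 in D16S-, of which Cd68 alone, a lysosomal protein, made 62 and 115. Their part in the immune lists was not tested. Endothelial markers were mixed, with 3 of 6 higher and 3 lower. Pecam1, which mouse stem cells also express, had 31.9 against 2.39 and Tek 1.91 against 7.74. Muscle, neural, mesoderm and endoderm lists had 4 of 9, 7 of 15, 2 of 11 and 6 of 16 genes over the filter. Of these kept genes, 0, 1, 1 and 1 were called higher in D16S+, and 2, 3, 0 and 2 lower. Afp, Ttr, Myod1 and Olig2 were at or under 0.119 FPKM in both fractions, but do not stand for the whole lists. The neural list summed to 103 FPKM in D16S+ and 160 in D16S-. Of 16 kept trophoblast genes, 3 were higher (18.8%) and 4 lower (25.0%), against 13.0% and 16.9% of all genes.

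Of 21 genes of serine, glycine and one-carbon metabolism, 10 were called higher in D16S+ and 2 lower (median 0.77). The glycine cleavage genes Amt, Gldc and Gcsh had 68.9 against 5.92, 52.0 against 5.38 and 27.4 against 6.32 FPKM, and Tdh, the threonine dehydrogenase of mouse stem cells, 157 against 26.1. The first enzyme of serine synthesis, Phgdh, was nearly equal at 72.5 against 73.6. In glycolysis 3 of 21 were higher and 1 lower (median -0.30), the former share being near that of all genes (13.0%) and the latter under it (16.9%). The glucose transporter Slc2a3 had 716 against 167 while Slc2a1 was within 2-fold at 538 against 759, and Ldhb had 192 against 37.7 while Ldha was within it at 855 against 1101. Few genes were called in oxidative phosphorylation (2 of 28 higher, 0 lower), cholesterol synthesis (1 of 20 higher, 0 lower) and ribosomal proteins (2 of 29 higher, 0 lower). Their medians were 0.28, 0.19 and 0.33, against -0.02 for all genes. Most members lay slightly on the side of D16S+, with 22, 14 and 25 positive differences, against 49.2% of all genes. Of 17 genes of the NRF2 response and glutathione, 8 were lower and 0 higher (median -0.86), led by Hmox1, heme oxygenase 1, at 187 against 1227. Of 22 lysosomal genes 9 were lower and 1 higher (median -0.88), with the cathepsin gene Ctsb at 68.5 against 257.

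**Figure D4:**
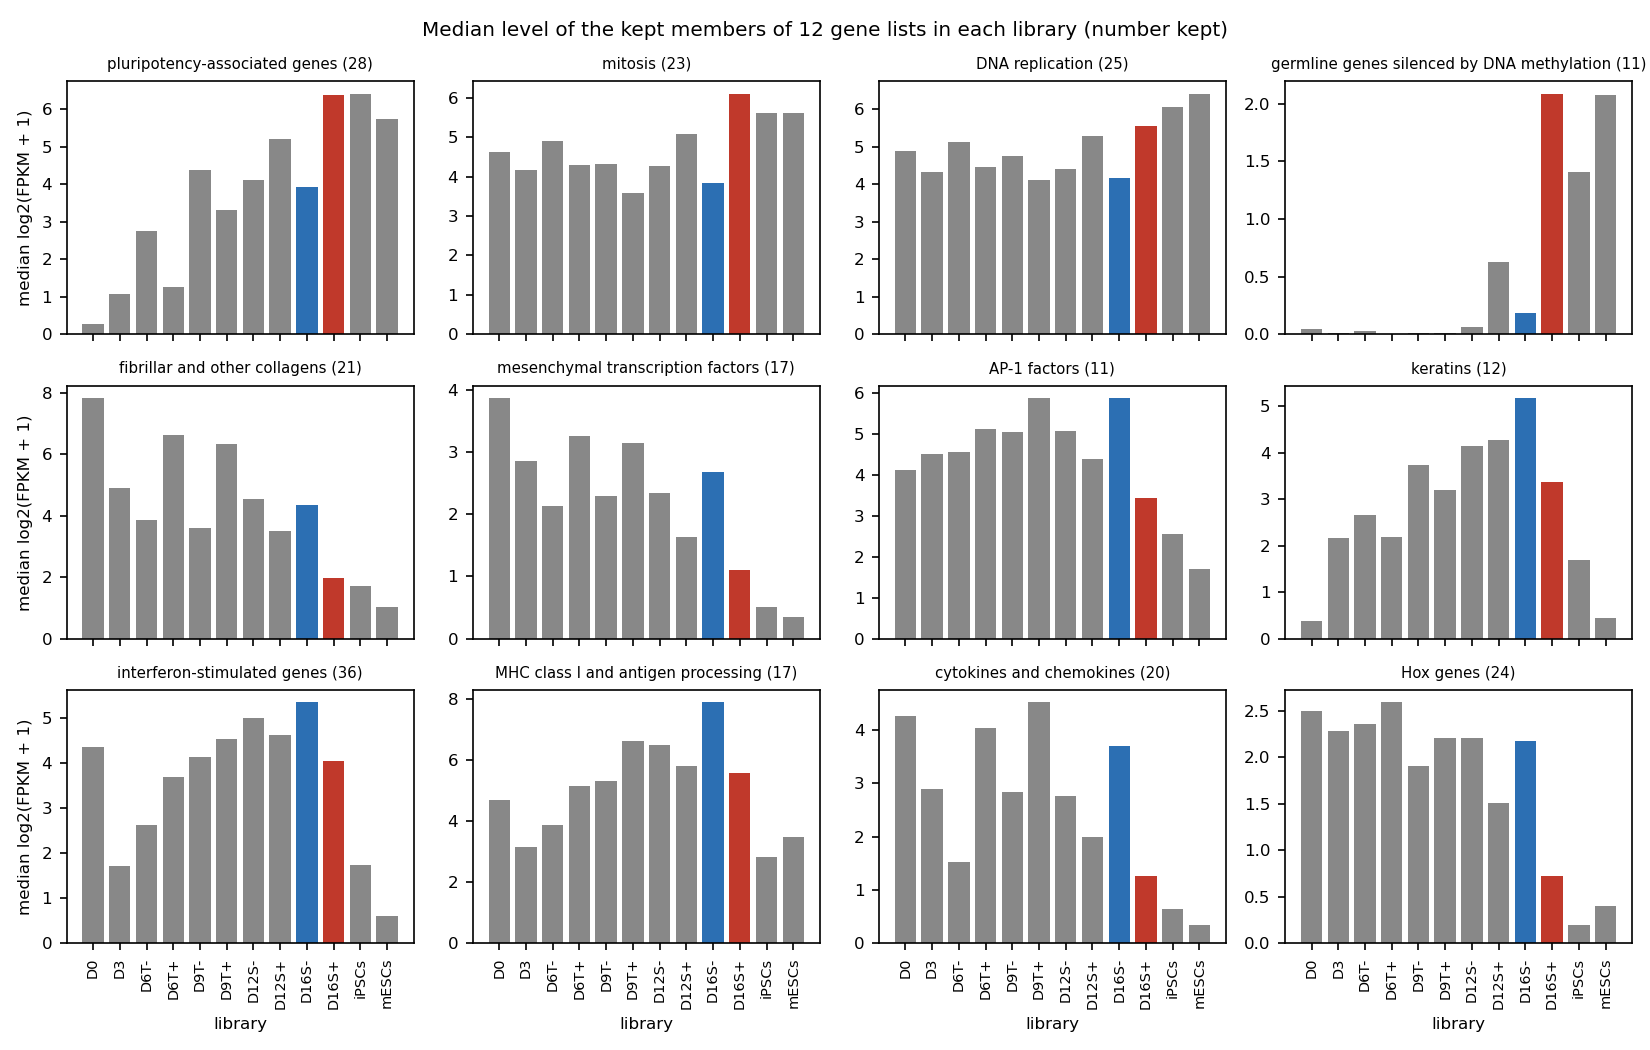
Median log2(FPKM + 1) of the kept members of 12 gene lists (bars, from 0) in each of the 12 libraries, with D16S- in blue and D16S+ in red and a separate y scale per panel. D16S- has the highest bar for keratins, interferon-stimulated genes, MHC class I and, by little, AP-1 factors, while D16S+ exceeds all earlier libraries for pluripotency-associated, mitotic and germline genes.

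The separation of day 16 was compared with that of day 12, whose 2 fractions are other libraries. On day 12, 672 of the 12791 genes were at least 2-fold higher in the SSEA-1+ fraction (5.25%) and 422 lower (3.3%). Of the 1669 genes higher in D16S+, 566 were also higher in D12S+ (33.9% of the day 16 genes and 84.2% of the day 12 genes), and 5 were lower. Of the 2162 lower genes, 403 were also lower on day 12 (18.6%, or 95.5% of the day 12 genes), and 0 were higher. That share of the lower genes was 29.5% with a pseudocount of 0.1. It was 0.541% when a 4-fold threshold was set on both days, so that a gene lower by 2-fold to 4-fold on day 12 no longer counted. The level already reached in D12S+ varied by gene. Esrrb, Aire and Dnmt3l already had 89.5, 43.8 and 172 FPKM in D12S+, whereas Lincenc1 and Dppa3 went from 2.25 and 14 to 29.3 and 85.0. Lincenc1 and Dppa3 were also already higher in D12S+ than in D12S-, by 1.54 and 3.3. Ccnb1 had 22.3 in D12S+ and 9.45 in D12S-, and thus differed less than on day 16. Vim had 811 FPKM in D12S+ and 188 in D16S+, while the negative fractions had 2108 and 2267.

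**Figure D5:**
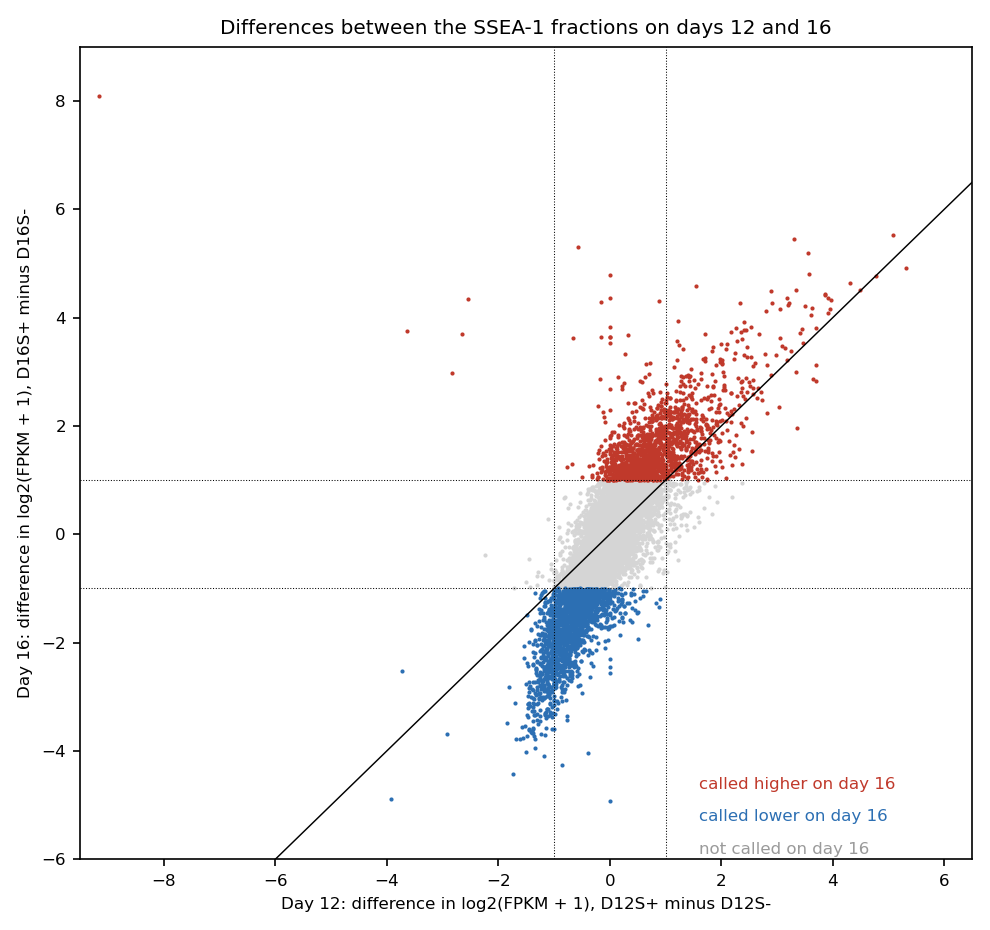
Difference between SSEA-1+ and SSEA-1- fractions on day 12 (x axis) and on day 16 (y axis), both in log2(FPKM + 1), for the 12791 genes; red and blue mark the 1669 higher and 2162 lower genes of day 16, dotted lines are at 2-fold and the solid line marks equal differences. Most coloured points share their sign on both days and lie further from 0 on day 16. That greater distance is in part fixed by the colours, which were set by day 16 alone. The 5 genes above the upper dotted line and left of the left one differ in sign.

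The end points of reprogramming, iPSCs and uninfected MEFs, gave another pair of libraries that the calls of day 16 did not use. In that pair 2485 of the 12791 genes were at least 2-fold higher in iPSCs (19.4%) and 2687 lower (21.0%). Of the genes higher in D16S+, 1098 were also higher in iPSCs than in D0 (65.8%, or 44.2% of those higher in iPSCs) and 26 lower. Of the genes lower in D16S+, 1400 were also lower in iPSCs (64.8%, or 52.1%) and 106 higher. The rest of the higher genes include some that neither end point expressed strongly. Among all 12 libraries, 632 of the 1669 higher genes had their highest level in D16S+ (37.9%), 561 in mESCs and 384 in iPSCs. Among the 2162 lower genes, 677 were highest in the MEFs (31.3%), 485 in D16S- (22.4%) and 262 in D9T+. Because the 2-fold rule used D16S+ and D16S-, their place in this order is in part fixed by it.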

How the data were processed

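Messenger RNA of 12 libraries was sequenced from TruSeq libraries (a stranded kit per the labels, another kit per the methods). The authors mapped reads to mm9 with STAR, removed reads with more than 2 mismatches or more than 1 locus, and estimated FPKM with cuffdiff. The deposited table holds FPKM per gene and library, the lower and upper end of the cuffdiff interval in FPKM, and a status word (deposited as text), which was other than OK for 7 kept genes. Versions, annotation and library scaling are not given in the sources used here. Removing reads with several loci lowers genes with close copies. Columns were matched to libraries by day and sorting sign, reading pos and neg as that sign.

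Differences of log2(FPKM + 1) were computed for genes that reached 1 FPKM in either day 16 fraction, with Python 3.11.15, numpy 2.4.6 and pandas 2.3.3, and drawn with matplotlib 3.10.9. With 1 library per condition no test was possible. The 52 gene lists (980 of 984 symbols found in the table) and the members were chosen with earlier results of these data known. Named genes were the 15 largest differences in each direction at an FPKM of at least 10 in one fraction, leaving out small RNAs and genes with a clone name or predicted number, plus list members. Coordinates and promoters are from mm9 with GENCODE M1. Alternatives were a pseudocount of 0.1, 2 other scalings, a 4-fold threshold, a minimum of 5 FPKM and no minimum. Total fragments per library are unknown, so no counting interval is given.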

Additional observations from a re-analysis of the deposited data

Results flagged for a closer look

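Of the genes kept, 5 differed in opposite directions between the SSEA-1 fractions on days 12 and 16, each by at least 2-fold; no test was made of this difference. They are small RNA genes, which a library of polyadenylated RNA captures poorly, and each was listed at 0 in D12S+ and D16S-. Mir5133 had 576.579 FPKM in D12S- and 271.188 in D16S+, so its difference was -9.17 on day 12 and 8.09 on day 16. On day 16, Snora17 differed by 3.70, Snora52 by 4.34, Snora65 by 3.75 and Snora7a by 2.98. On day 12 these were -2.66, -2.55, -3.64 and -2.84. The cuffdiff interval of each value above 0 began at 0 and reached at least 120 FPKM, up to 2730 for Mir5133.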

How the results depend on the processing

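Of 375 values recomputed under an alternative, 326 stayed within 0.5 log2 units (medians and genes), 1.5 times (counts) or the 95% binomial interval (shares) of the reported one. Among list medians and named genes with a reported difference of at least 1 in size, 0 changed sign. Calls of other single genes were not followed. With a pseudocount of 0.1, the shares of day 16 genes shared with day 12 became 45.4% (higher) and 29.5% (lower), those shared with the end points 71.5% and 69.2%, and the medians of collagens and other matrix -3.22 and -2.43. Scaled to the same total FPKM, the share shared with day 12 was 31.5% for higher genes, and those shared with the end points 69.8% and 61.4%. At 4-fold, 385 genes were higher and 555 lower. With the 4-fold threshold also set on the other pair, 28.1% and 0.541% of these were shared with day 12, and 59.2% of the higher ones with the end points. The median changed sign in 6 lists under some setting (CDK inhibitors, FGF, Wnt, endoderm, endothelial and neural). Leaving out small RNAs and genes with another status word, chosen after seeing the data, gave 1649 higher and 2154 lower. No paired analysis was possible because each condition had 1 library, and for the same reason no library could be left out. Depth limits genes near an FPKM of 1, and the modelled intervals hold no variation between cultures.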

Other observations

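Genes of the X chromosome leaned to D16S+. Of 411 kept genes on X, 84 were at least 2-fold higher in D16S+ (20.4%) and 49 lower (11.9%), with a median difference of 0.23. On the 19 autosomes the share higher lay between 9.28% and 15.0%, and the medians between -0.12 and 0.06. Xist, the RNA that coats a silenced X chromosome, had 1.5 FPKM in D16S+, 3.84 in D16S-, 1.42 in MEFs and 0.148 in iPSCs. Rps4x, a ribosomal protein gene on X, had 1408 against 336 FPKM, but ribosomal genes have many processed copies, so its value is uncertain.

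A few further genes lower in D16S+, chosen after their values were seen, follow. Cryab, a small heat shock protein, had 3639 FPKM in D16S- against 302 in D16S+ and 139 in MEFs. Nppb, a natriuretic peptide, had 132 against 11.8, and 0.441 in MEFs. Avil, an actin-binding protein of the villin family, had 56.2 against 3.94, and 0.334 in MEFs. Cyp11a1, the first enzyme of steroid synthesis, had 29.2 against 6.74 and was highest of the 12 libraries in D16S-. Imprinted genes were mixed: of 19 kept, 3 were called higher in D16S+ (15.8%, near the 13.0% of all genes) and 6 lower (31.6%, against 16.9%). H19 had 499 against 1152 and Igf2 59.8 against 184. In the Dlk1-Dio3 region, whose silencing is known to mark poor iPSC lines, Meg3 had 132 against 162 and Rian 27.3 against 31.5 FPKM, and 1 of 5 kept genes, Begain, was called lower. Of 22 kept Wnt pathway genes, 3 were called higher (13.6%, near the 13.0% of all genes) and 9 lower (40.9%, against 16.9%). Their median was -0.82, but 0.42 with a minimum of 5 FPKM. Among the higher ones, the nuclear factors Lef1 and Tcf7 had 7.91 against 0.596 and 34.4 against 7.39. Among the lower ones, the receptor Fzd1 and the antagonist Dkk2 had 1.63 against 15.9 and 1.05 against 14.1.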
